A study of Mus musculus with 8 samples.

Results

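The C/EBP family comprises the genes Cebpa, Cebpb, Cebpd, Cebpe, Cebpg and Cebpz, and it was examined in leukemia cells of mice transformed by the fusion gene MLL-AF9. The members were the rows of the deposited gene table that bear these names. All 6 were present among 12823 rows, and all 6 passed the filter on low expression, which kept 12494 genes for testing. The filter required 4 or more of the 8 libraries to reach 1 CPM. CPM is the count of a gene divided by the total of its library and multiplied by a fixed constant, here with library totals adjusted by TMM, which evens out differences in composition.

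C/EBP proteins are transcription factors of the basic leucine zipper (bZIP) class, which bind DNA as dimers with each other or with related factors. C/EBPα directs progenitors into the granulocyte and monocyte lineages, C/EBPε acts in the late steps of granulocyte maturation, and C/EBPβ and C/EBPδ serve inducible and inflammatory gene expression. C/EBPγ is a short protein and works mainly through its partners, among them ATF4. Cebpz is grouped with the family by its name, but its product belongs to ribosome assembly and is not a bZIP factor.

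The study compared 4 libraries of MLL-AF9 cells sampled soon after the leukemia was made (new AML) with 4 libraries of MLL-AF9 cells obtained through 5 serial transplantations (aggressive AML). New AML arose from C57BL/6 bone marrow progenitors that received MLL-AF9 and GFP by retrovirus and were placed in sublethally irradiated mice. Aggressive AML was derived from the remaining GFP+ cells of that leukemia by passage in non-irradiated mice, so that every library of both groups carries MLL-AF9 and GFP and descends from 1 derivation. RNA came from GFP+ bone marrow cells, and recipients were male and 8 to 12 weeks old. The comparison bears on what changed in the leukemia during passage. Because there is 1 derivation and the labels give no batch, passage, drift of the cells and any batch that follows the group cannot be told apart. The labels call the replicates biological but do not tie them to separate animals, and p-values therefore measure the spread between these libraries.

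Totals ranged from 7805544 to 9697777 counts per library. In the quasi-likelihood test of edgeR, 2296 of the 12494 tested genes (18.4%) passed an adjusted p of 0.05, and such genes are named here as called. Fold changes are given as log2 of aggressive over new AML throughout, with a median of 0.0004 over all tested genes. The number of called genes was 1466 without new AML replicate 2. All 10 genes of a list for MLL-AF9 leukemia identity were tested. Of these, 3 were called higher, Meis1 and Mef2c among them, and 1, Hoxa10, was called lower. Of the T cell markers 6 of 7, and of the NK cell markers 5 of 6, were not among the rows. All 10 neutrophil and all 8 erythroid markers were among the rows, as were 5 of 8 macrophage and 4 of 6 B cell markers. Aggressive AML replicate 3 stood apart from its group for the C/EBP genes, as described below, and each member is therefore given with and without it.

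Of the 6 members, 1 rose and 1 fell in aggressive AML. Cebpe was higher and Cebpd was lower, while Cebpa, Cebpb, Cebpg and Cebpz were not called. The 2 called members stand against a background of 18.4% of tested genes called in either direction, 8.15% called higher and 10.2% called lower. The same 2 were called without aggressive AML replicate 3, where the background was 16.6%. The family is too small to read this count as more or less than the background, and the sections that follow describe each gene by itself.

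**Figure D1:**
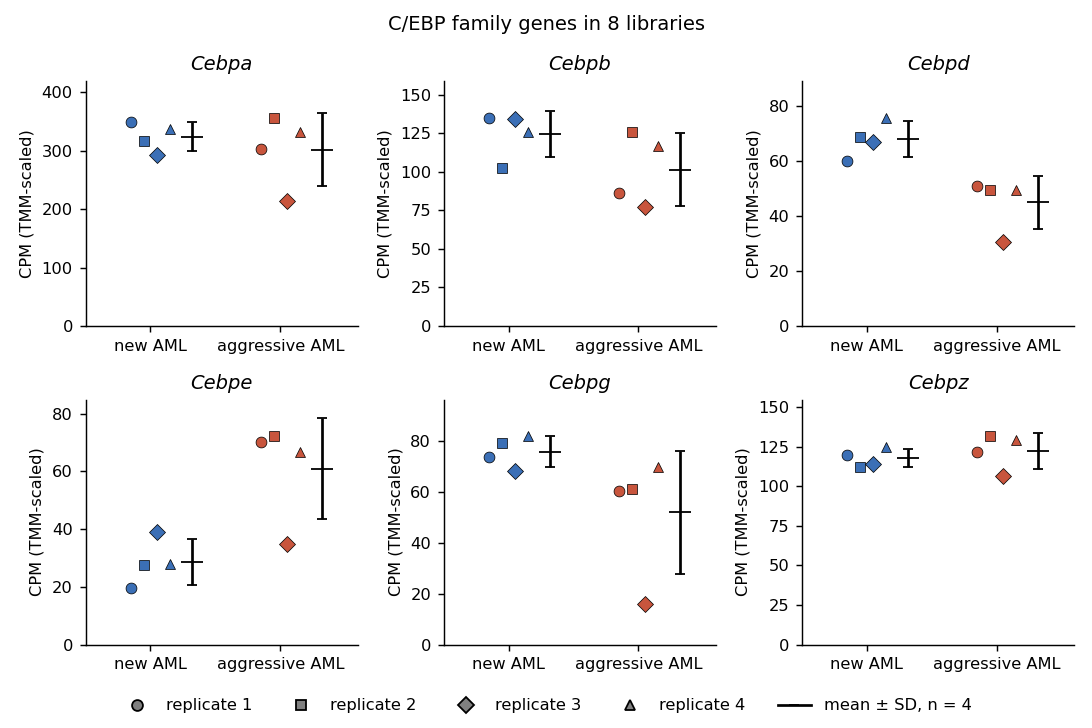
Expression of each C/EBP gene in CPM (y axis, linear from 0) in the new AML and aggressive AML libraries (x axis). Symbols are replicates and bars are the mean ± SD over 4 libraries; aggressive AML replicate 3, the red diamond, is the lowest library of its group in all 6 panels.

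Cebpa encodes the factor that commits progenitors to the myeloid lineage, and it is a single-exon gene on chromosome 7 (35119293 to 35121928, plus strand, GRCm38). It stood at 349.6, 316.7, 292.4 and 336.7 CPM in new AML replicates 1 to 4 and at 303.2, 356.6, 214.2 and 332.7 CPM in aggressive AML replicates 1 to 4. The groups overlapped, and the lowest value belonged to aggressive AML replicate 3. Means were 323.8 ± 24.9 and 301.7 ± 62.3 CPM (SD, n = 4), and the log2 fold change was -0.10 (SE 0.12, 95% interval -0.36 to 0.16, edgeR adjusted p = 0.601). The sign of this difference rested on 1 library, since without aggressive AML replicate 3 the log2 fold change was 0.035 (adjusted p = 0.819).

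Cebpb, an inducible factor of macrophage and emergency granulocyte programs, lies on chromosome 2 (167688915 to 167690418, plus strand). New AML had 135.1, 102.7, 134.2 and 125.8 CPM, and aggressive AML had 86.2, 126.0, 77.0 and 116.6 CPM. Aggressive AML replicates 1 and 3 lay below every new AML library, but replicates 2 and 4 lay within the range of new AML. Means were 124.4 ± 15.1 and 101.5 ± 23.6 CPM (SD, n = 4). The log2 fold change was -0.29 (SE 0.14) with an unadjusted p of 0.0504 and an edgeR adjusted p of 0.154. Its 95% interval ran from -0.59 to 0.0006, and without aggressive AML replicate 3 the fold change was -0.18 (adjusted p = 0.348). GENCODE places part of Tmem189 over Cebpb on the opposite strand. Tmem189 itself had 41.5 ± 4.88 and 38.8 ± 4.38 CPM, a log2 fold change of -0.10 (adjusted p = 0.602).

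Cebpd, the member best known as an acute-phase and growth-arrest gene, lies on chromosome 16 (15887286 to 15891031, plus strand). It had 60.1, 69.0, 67.1 and 75.8 CPM in new AML and 50.8, 49.4, 30.6 and 49.5 CPM in aggressive AML. Every aggressive AML library lay below every new AML library, and replicates 1, 2 and 4 of aggressive AML were within 1.5 CPM of each other. Cebpd fell from 68.0 ± 6.43 to 45.1 ± 9.68 CPM (SD, n = 4), which is 1.51-fold lower. The log2 fold change was -0.59 (SE 0.14, 95% interval -0.88 to -0.30, edgeR adjusted p = 0.00758). Without aggressive AML replicate 3 it was -0.44 (adjusted p = 0.00412), so that the call held while the size was smaller. It was the 1 member whose groups did not overlap, against 21.8% of all tested genes. Spidr, a DNA repair gene, overlaps the 3′ end of Cebpd on the opposite strand. The counting was not stated to use strand, so that reads of the overlap cannot be assigned, but Spidr had 57.9 ± 6.69 and 61.8 ± 5.53 CPM (log2 fold change 0.09, adjusted p = 0.565).

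Cebpe, the factor of late granulocyte maturation, lies on chromosome 14 (54710360 to 54712174, minus strand). New AML had 19.6, 27.5, 38.9 and 28.0 CPM, and aggressive AML had 70.2, 72.2, 34.9 and 66.7 CPM. Replicates 1, 2 and 4 of aggressive AML lay above every new AML library, whereas aggressive AML replicate 3 lay within the range of new AML, below new AML replicate 3. Cebpe rose from 28.5 ± 7.94 to 61.0 ± 17.6 CPM (SD, n = 4), which is 2.15-fold higher. The log2 fold change was 1.10 (SE 0.21, 95% interval 0.65 to 1.56, edgeR adjusted p = 0.00233), and 4.88% of tested genes had a larger absolute value. Without aggressive AML replicate 3 it was 1.30 (adjusted p = 5.2e-05). In aggressive AML replicate 3 the gene had 269 counts with an exact Poisson interval of 238 to 303, against 583, 613 and 586 counts in the other libraries of the group. Such intervals cover counting error only.

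Cebpg, the short partner factor of the stress-response network, lies on chromosome 7 (35046422 to 35056573, minus strand). It had 73.8, 79.1, 68.0 and 81.8 CPM in new AML and 60.5, 61.1, 16.1 and 69.9 CPM in aggressive AML. Aggressive AML replicate 3 was 3.97-fold below the mean of the other 3 libraries of its group, of which replicate 4 lay within the range of new AML and replicates 1 and 2 lay below it. Means were 75.7 ± 6.08 and 51.9 ± 24.3 CPM (SD, n = 4), and the log2 fold change was -0.54 (SE 0.27, 95% interval -1.12 to 0.04, edgeR adjusted p = 0.186). Without aggressive AML replicate 3 it was -0.24 (adjusted p = 0.0858), and the coefficient of variation in the group was 8.21% in place of 46.8%. With replicate 3 of both groups left out, a choice made after the data were seen, the fold change was -0.29 and passed the threshold (adjusted p = 0.0317).

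Cebpz, the ribosome assembly gene, lies on chromosome 17 (78919006 to 78937066, minus strand). Its values were 119.5, 112.3, 114.2 and 124.9 CPM in new AML and 121.7, 131.6, 106.6 and 129.1 CPM in aggressive AML. The groups overlapped widely, and this was the least variable member, with a coefficient of variation of 4.81% in new AML. Means were 117.7 ± 5.67 and 122.3 ± 11.2 CPM (SD, n = 4), with a log2 fold change of 0.05 (SE 0.08, 95% interval -0.12 to 0.23, edgeR adjusted p = 0.689). Cebpzos overlaps one end of Cebpz on the other strand and had 10.02 ± 0.408 and 11.5 ± 1.08 CPM (log2 fold change 0.20, adjusted p = 0.389).

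**Figure D2:**
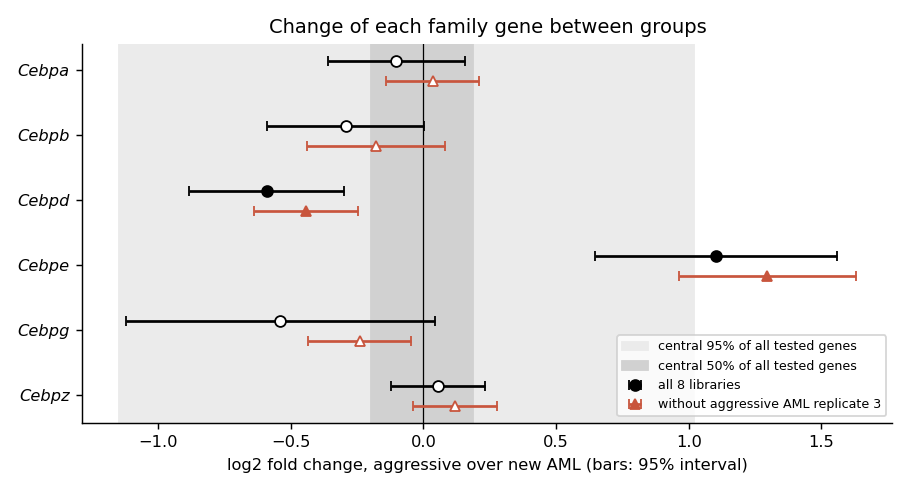
Log2 fold change of aggressive over new AML (x axis) for each C/EBP gene (y axis), with all 8 libraries (black circles) and without aggressive AML replicate 3 (red triangles). Bars are 95% intervals, filled symbols passed an adjusted p of 0.05, and grey bands hold the central shares of all tested genes; Cebpe at 1.10 lies above the central 95% band, which ends at 1.02, and Cebpd lies outside the central 50% band.

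Aggressive AML replicate 3 was the lowest library of its group for all 6 members, where 33.0% of tested genes had that library as the lowest. Its difference from the mean of the other 3 libraries on the log2(CPM + 1) scale was -0.62 for Cebpa, -0.49 for Cebpb, -0.69 for Cebpd, -0.98 for Cebpe, -1.92 for Cebpg and -0.25 for Cebpz. Differences of at least 0.5 in this direction were found for 4 members and for 7.2% of all tested genes. The family was not uniform in this: at least as low a value was found in 20.3% of tested genes for Cebpz, in 4.17% for Cebpa and in 0.880% for Cebpe. For Cebpg it was 0.0160%, which is 2 genes including Cebpg itself. The other was Bcl11b, a lymphoid transcription factor at 2.46 CPM in that library, named here after its values were seen. Cebpg had 124 counts there, with an exact Poisson interval of 103 to 148, against 502 to 614 counts in the other 3 libraries. The total of this library, 7805544 counts, was the lowest of the 8, and its TMM factor of 0.989 was within the range of the others.

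**Figure D3:**
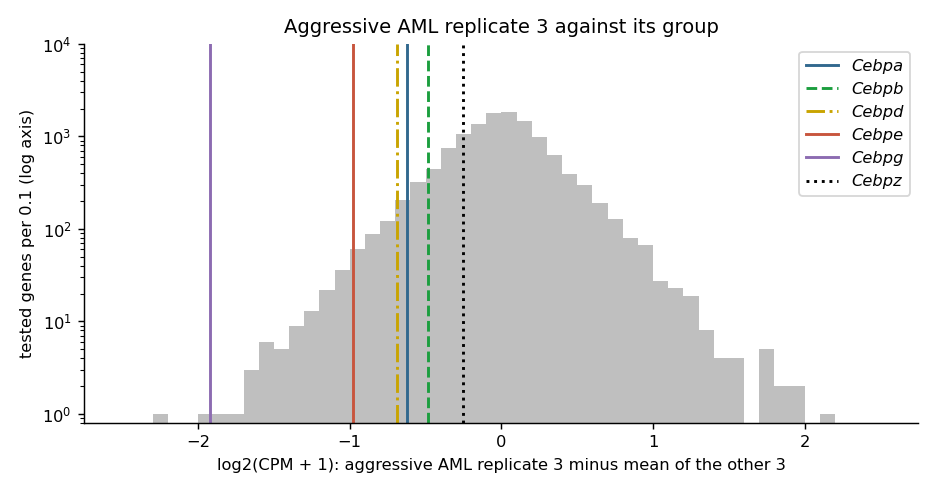
Histogram of the difference between aggressive AML replicate 3 and the mean of the other 3 aggressive AML libraries on the log2(CPM + 1) scale (x axis) over all tested genes (y axis, log scale, genes per 0.1). Lines mark the 6 C/EBP genes; all lie left of 0, and Cebpg at -1.92 lies at the edge of the distribution.

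Cebpg and Cebpa are neighbors, transcribed away from each other with 62.7 kb between them, and they behaved differently in that library. The sequences upstream of both starts are shown because these adjacent genes differed in the 1 library that stood apart. They are the 250 bases before each gene's start, 5′ to 3′ on the strand of the gene, from RefSeq on GRCm38.p6. Capitals mark CCAAT read on the opposite strand (ATTGG) for Cebpg and TATAAA for Cebpa.
Cebpg, chr7:35056567-35056816, minus strand: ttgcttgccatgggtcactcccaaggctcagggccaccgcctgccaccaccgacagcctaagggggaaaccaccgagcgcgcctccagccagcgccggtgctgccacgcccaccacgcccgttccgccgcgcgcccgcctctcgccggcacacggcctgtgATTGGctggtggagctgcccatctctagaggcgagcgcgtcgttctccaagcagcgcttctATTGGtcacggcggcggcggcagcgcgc
Cebpa, chr7:35119043-35119292, plus strand: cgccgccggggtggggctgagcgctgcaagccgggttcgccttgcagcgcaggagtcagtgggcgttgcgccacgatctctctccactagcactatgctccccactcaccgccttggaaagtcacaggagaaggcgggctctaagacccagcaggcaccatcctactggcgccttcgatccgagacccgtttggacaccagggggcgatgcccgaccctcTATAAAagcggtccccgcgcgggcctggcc

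The Cebpg stretch is 70.8% G and C and holds CCAAT at positions -89 and -28 from the start, and the Cebpa stretch is 66.4% G and C and holds TATAAA at position -30. Among 32851 RefSeq windows of 300 bases around gene starts, searched on both strands, 37.4% held CCAAT and 13.6% held TATAAA. The C/EBP motif, searched as TTGCNNAA, was found in 10.8% of all windows and in none of those of Cebpa, Cebpb and Cebpg, the 3 members that matched the table. Cebpd, Cebpe and Cebpz are named only. These matches describe letters and are not binding sites. Pepd, which lies beside Cebpg on the side away from Cebpa and encodes a dipeptidase, had 57.9 ± 2.85 and 55.2 ± 5.37 CPM in the groups (log2 fold change -0.07, adjusted p = 0.646). Its difference in aggressive AML replicate 3 from the rest of the group was -0.20 on the log2(CPM + 1) scale. The drop of Cebpg in that library was therefore not of the same size in either neighbor.

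To compare levels between members, CPM was divided by the exon length of each gene in GENCODE. Cebpa was the most abundant, at 122.9 ± 9.46 CPM per kb (SD, n = 4) in new AML and 114.4 ± 23.6 in aggressive AML, followed by Cebpb at 82.7 ± 10.02 and 67.5 ± 15.7. Cebpa stood above Cebpb in all 8 libraries. In new AML the next places were held by Cebpz (25.3 ± 1.22 CPM per kb), Cebpe (23.0 ± 6.40) and Cebpd (18.2 ± 1.72). These did not differ from their neighbors beyond their spread: Cebpe was above Cebpz in 1 of 4 libraries and above Cebpd in 3 of 4. In aggressive AML, by exon length, Cebpe came after Cebpb at 49.1 ± 14.2, above Cebpz (26.2 ± 2.41) and Cebpd (12.03 ± 2.58) in 4 of 4 libraries. Cebpg was the lowest in both groups, at 13.5 ± 1.08 and 9.23 ± 4.32.

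The sum over the family was similar, at 285.4 ± 12.8 CPM per kb (SD, n = 4) for new AML and 278.6 ± 59.8 for aggressive AML, with the lowest value, 194.4, in aggressive AML replicate 3. Its makeup shifted toward Cebpe. Cebpe held 5.39% to 11.0% of the sum in new AML and 14.4% to 20.3% in aggressive AML, without overlap and with aggressive AML replicate 3 included at 14.4%. Cebpa held 43.1 ± 2.99% and 41.2 ± 0.490%. Cebpb held 28.9 ± 2.57% and 24.3 ± 2.58%, and Cebpd held 6.37 ± 0.659% and 4.33 ± 0.370%. The share of Cebpg was 4.72 ± 0.460% and 3.15 ± 1.16%, and that of Cebpz 8.86 ± 0.238% and 9.65 ± 1.45%. No test was run on the shares, which sum to a fixed total.

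**Figure D4:**
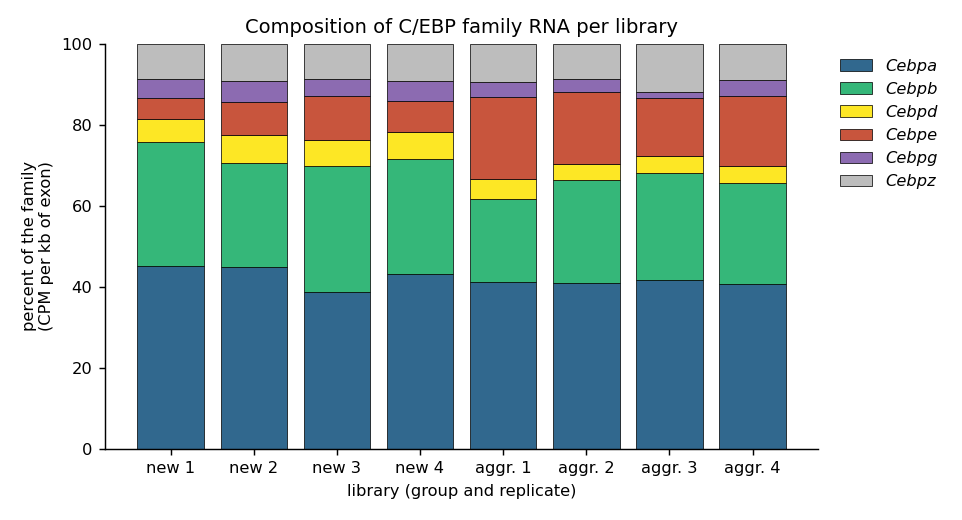
Share of each C/EBP gene in the summed CPM per kb of exon of the family (y axis, percent) in each library (x axis). The Cebpe segment spans 5.39% to 11.0% in the new AML libraries and 14.4% to 20.3% in the aggressive AML libraries.

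The shares depended on the length used. The direction of the Cebpe shift did not, but this was largely set in advance. A length scales a gene alike in both groups, and Cebpe had the largest rise of the members, 2.15-fold. With coding length in place of exon length, Cebpe held 4.44% in new AML and 10.6% in aggressive AML, and Cebpg, whose coding region of 150 codons is the shortest, held 21.99% and 16.1%. The order of the members below Cebpa therefore holds for exon length only. In aggressive AML Cebpe came after Cebpg (16.1%) by coding length and after Cebpz (18.3%, against 8.80% for Cebpe) without a length correction, and Cebpg was not the lowest by either. Within a library, Cebpe can be set against another member without any length. The ratio of Cebpe to Cebpd in CPM was 0.326, 0.398, 0.580 and 0.369 in new AML and 1.38, 1.46, 1.14 and 1.35 in aggressive AML. Every aggressive AML library, replicate 3 included, was above every new AML library in this ratio. Its genes are the members called higher and lower in these same libraries, so the separation is no further support for either call. Aggressive AML replicate 3 was low for both, by -0.98 for Cebpe and -0.69 for Cebpd on the log2(CPM + 1) scale, and a ratio cancels much of this. Cebpe alone in that library lay within the range of new AML. Cebpe amounted to 5.61% to 13.3% of Cebpa in new AML and to 16.3% to 23.2% in aggressive AML.

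The genes whose pattern over the 8 libraries was most like that of a called member were sought among genes with a mean of at least 10 CPM, by the root mean square difference of centered log2 values. For Cebpd these were Exog, a mitochondrial nuclease gene (0.0867), Rubcn, which restrains autophagy (0.0904), and Dguok, a mitochondrial nucleoside kinase gene (0.103). Exog had a log2 fold change of -0.47 (adjusted p = 0.0565), Rubcn of -0.57 (adjusted p = 0.0284) and Dguok of -0.66 (adjusted p = 0.00473). For Cebpe the nearest genes were farther off, with Lmbr1 at 0.247, Hsd17b7 of cholesterol synthesis at 0.317 and Tln2, a talin gene, at 0.334. Lmbr1 rose by a log2 fold change of 0.98, Hsd17b7 by 0.78 and Tln2 by 0.80. These likenesses use the values that made the calls and are descriptions.

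**Figure D5:**
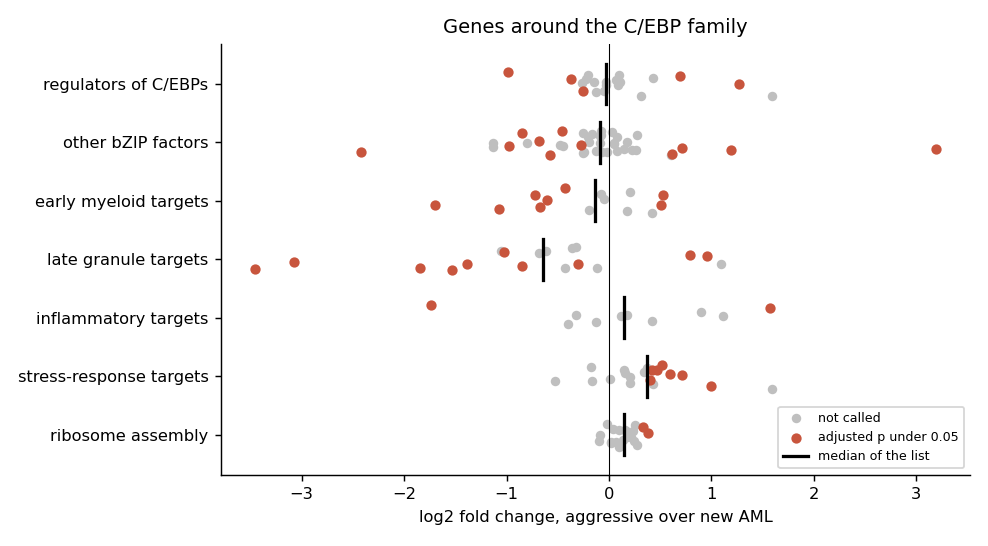
Log2 fold change of aggressive over new AML (x axis) for the tested genes of 7 lists around the C/EBP family (y axis). Red points passed an adjusted p of 0.05, grey points did not, and black lines are medians; the late granule list has its median at -0.65 and the stress-response list at 0.37.

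Genes that act on the C/EBP family came first. Of 20 tested regulators, 2 rose and 3 fell, with a median log2 fold change of -0.03, against 18.4% of all genes called. Runx1, which acts upstream of Cebpa in hematopoiesis, fell from 202.5 ± 18.6 to 102.5 ± 13.5 CPM (log2 fold change -0.98, SE 0.10, adjusted p = 9.17e-06). Spi1, the gene of the myeloid factor PU.1, fell from 260.1 ± 5.46 to 218.5 ± 9.54 CPM (log2 fold change -0.25, adjusted p = 0.0159), a call that was lost without new AML replicate 2 (adjusted p = 0.0524). Stat3, which transmits cytokine signals to Cebpb and Cebpd, fell by 0.37 on the log2 scale. Trib1, whose product leads C/EBPα protein to degradation, rose from 8.95 ± 4.47 to 21.5 ± 7.93 CPM (log2 fold change 1.26, adjusted p = 0.0104), with overlap between the groups. RNA levels do not show the amount of C/EBPα protein, which was not measured here. The count of called regulators was 3 without new AML replicate 2.

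Among 40 tested genes of other bZIP factors, which can share dimer partners or sites with C/EBP proteins, 4 rose and 7 fell (median -0.09). The share called was 27.5%, against 18.4% of all tested genes. Atf4, a partner of C/EBPγ in the response to amino acid shortage, rose from 237.1 ± 28.9 to 363.3 ± 85.8 CPM (log2 fold change 0.62, adjusted p = 0.00586). Ddit3, the gene of the inhibitory family relative CHOP, had 13.5 ± 2.02 and 15.01 ± 3.07 CPM, with a log2 fold change of 0.15 that did not pass (adjusted p = 0.579). Of the AP-1 genes, Fosl2 fell from 122.4 ± 11.9 to 67.9 ± 6.89 CPM and Fosl1 rose from 0.229 ± 0.163 to 2.15 ± 1.26 CPM. Fosl1 had at most 3 counts in each new AML library and reached 1 CPM only in the aggressive AML libraries. It passed the filter only through the group where it is high, so the direction of its change was set by the filter. It is counted among the 4 that rose. Without aggressive AML replicate 3, or any other library of that group, it was too low to be tested. Maff rose from 4.53 ± 1.15 to 10.3 ± 2.79 CPM, and Bach2, a repressor, fell from 5.39 ± 0.437 to 0.993 ± 0.394 CPM. Leaving out aggressive AML replicate 2 left 7 called genes, and leaving out replicate 3 of that group left 8.

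Early myeloid genes known as C/EBPα targets moved in both directions: of 14 tested, 2 rose and 6 fell, with a median of -0.14. The share called was 57.1%, against 18.4% of all tested genes. Cytokine receptor genes were among those that fell. Csf1r, the receptor of macrophage colony-stimulating factor, fell from 166.2 ± 28.4 to 51.2 ± 6.41 CPM (log2 fold change -1.70, SE 0.12, adjusted p = 3.76e-07). Csf3r, the receptor of granulocyte colony-stimulating factor, fell from 115.5 ± 11.2 to 69.8 ± 6.26 CPM, and Il6ra fell from 121.1 ± 20.003 to 75.8 ± 9.29 CPM. Ctsg, a primary granule protease gene, rose from 1407 ± 144 to 2004 ± 148 CPM (log2 fold change 0.51, adjusted p = 0.000636). Cebpa itself was not called in these libraries, as given above.

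Among genes of the late granules, which are known targets of C/EBPε, more fell than rose. Of 18 tested, 2 rose, 8 fell and 8 were not called, with a median of -0.65, and both counts were the same without aggressive AML replicate 3. The share called was 55.6%, against 18.4% of all tested genes. Ltf, which encodes lactoferrin, fell from 31.0 ± 5.99 to 3.68 ± 1.49 CPM (log2 fold change -3.07, SE 0.24, adjusted p = 7.58e-07). Mmp8 fell from 57.0 ± 13.3 to 15.8 ± 1.44 CPM, Mmp9 from 6.71 ± 2.55 to 0.585 ± 0.419 CPM and Ngp from 47.1 ± 12.6 to 16.3 ± 4.51 CPM. The 2 that rose, named after their values were seen, were Padi4, the gene of a histone-modifying enzyme of neutrophils (17.7 ± 2.66 to 34.5 ± 3.73 CPM), and Pglyrp1, which encodes a peptidoglycan-binding granule protein (49.1 ± 6.91 to 84.6 ± 11.99 CPM).

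Markers of mature neutrophils, 8 of which are also on the late granule list, moved with it. Of 10 tested markers 0 rose and 7 (70.0%) fell by the edgeR test, against 10.2% of all tested genes called lower. In addition, 0 markers rose at an unadjusted p under 0.05 or by DESeq2 or limma. Their summed level was 322.2 to 486.1 CPM in new AML and 168.7 to 219.9 CPM in aggressive AML. None of the 10 was absent. For macrophage markers, 4 of 8 were tested and 1 was called, lower, with summed levels of 82.9 to 145.6 and 56.0 to 90.8 CPM. For erythroid markers, 6 of 8 were tested and 2, Slc4a1 and Hba-a1, fell, with summed levels of 126.4 to 171.9 and 110.9 to 130.6 CPM. Neither erythroid call held in every fit with 1 library left out. The part of other cells in the granule genes was not tested, and in sorted bulk cells fewer cells of a type and less RNA per cell cannot be told apart. In aggressive AML replicate 3 the neutrophil sum was 169.0 CPM, within the range of its group. Other markers were sparse or moved apart. Of 6 B cell markers 2 were tested and Cd22 fell. Cd22 reached 1 CPM in the new AML libraries only, so it passed the filter through that group, which set its direction. Of 6 NK cell markers Nkg7 alone was tested and it rose, a call that was lost without 5 of the 8 libraries in turn. Of 6 mast cell and basophil markers 4 were tested and Mcpt8 rose, and of 7 T cell and 7 eosinophil markers 1 and 2 were tested, of which 0 had an unadjusted p under 0.05 and 0 were called by edgeR, DESeq2 or limma.

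Sites with the letters TTGCNNAA near the start of late granule genes are shown because these 3 genes are on the list of C/EBPε targets and were among those called lower. Each line gives 30 bases around the motif in capitals, 5′ to 3′ on the strand of the gene.
Ltf, chr9:111019206-111019235, plus strand: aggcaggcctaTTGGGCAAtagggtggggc
Mmp8, chr9:7558399-7558428, plus strand: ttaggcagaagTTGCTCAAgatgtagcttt
Ngp, chr9:110419659-110419688, plus strand: gtcctggtttaTTGCCCAAacctccttgcc

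The motif was read on both strands, and in Ltf it lies on the opposite one. It was present in 6 of the 17 windows of late granule genes (35.3%) and in 5 of 17 windows of inflammatory genes (29.4%). The shares were 1 of 12 windows for early myeloid genes and 10.8% for all windows. Beside the late granule genes shown, it was found in S100a9, which was called lower. It was also found in Lcn2 and Fcnb, which were not called (edgeR adjusted p = 0.325 and 0.427). These genes were named after their values were seen. The C/EBP-ATF composite motif, searched as TGATGNAA, was present in 0 of the 17 late granule windows and in 8 of 27 windows (29.6%) of the stress-response list, against 3.97% of all windows. The composite motif can contain the letters TTGC of the C/EBP motif on its opposite strand, but no stretch of 8 bases can match both motifs. Windows of 1 gene can overlap, and no count was tested.

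Stress-response genes, which ATF4 and C/EBP partners drive when amino acids are short, rose where they were called. Of 19 tested genes, 7 (36.8%) rose and 0 fell by the edgeR test, against 8.15% of all tested genes called higher. The median was 0.37, and 3 genes had a fold change below 0. At an unadjusted p under 0.05 the counts were 10 and 0, and 0 fell by DESeq2 or limma. Without aggressive AML replicate 3 the count was 10 higher and 0 lower. It was 3 when new AML replicate 4 or aggressive AML replicate 2 was left out, and 4 when new AML replicate 2 was. Pycr1 of proline synthesis rose from 32.3 ± 1.42 to 48.9 ± 1.14 CPM (log2 fold change 0.60, SE 0.09, adjusted p = 0.000333). Asns, asparagine synthetase, rose from 26.0 ± 6.45 to 52.1 ± 23.6 CPM, with aggressive AML replicate 2 highest at 87.3 CPM. Psat1 of serine synthesis rose from 330.2 ± 16.97 to 435.7 ± 53.8 CPM, and the amino acid transporter subunit Slc3a2 rose from 103.8 ± 13.1 to 149.1 ± 31.5 CPM with overlap between groups. The call of Slc3a2 was lost without new AML replicate 4 (adjusted p = 0.0525) and without aggressive AML replicate 2 (adjusted p = 0.0517). In aggressive AML replicate 3 the median difference of the list from the rest of the group was -0.30 on the log2(CPM + 1) scale, against -0.0044 over all tested genes. Some other lists were also below 0 there, with -0.20 for ribosome assembly, -0.17 for early myeloid genes, -0.16 for regulators and -0.12 for other bZIP factors. Late granule genes were at -0.0081. Inflammatory genes (0.021), leukemia identity genes (0.188) and markers of neutrophils (0.130), macrophages (0.176) and erythroid cells (0.221) were above 0. The composite motif was found near the start of Trib3 and Herpud1 of this list, which were not called (edgeR adjusted p = 0.0602 and 0.959). It was also found near the start of Chac1, Slc7a11, Nupr1 and Vldlr, which were not among the tested genes. These genes were named after their values were seen. Stretches of Pycr1 and Asns with the motif are given because both genes were among those that rose.
Pycr1, chr11:120643833-120643862, minus strand: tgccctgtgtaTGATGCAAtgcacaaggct
Asns, chr6:7693214-7693243, minus strand: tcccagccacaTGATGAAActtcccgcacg

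Inflammatory genes known as targets of C/EBPβ and C/EBPδ were sparse in these cells. Of 20 on the list 12 were among the rows and 10 were tested. Of these 10, 1 rose and 1 fell, with a median of 0.15, against 18.4% of all tested genes called. Il1rn, the interleukin-1 receptor antagonist, fell from 3.03 ± 1.13 to 0.886 ± 0.501 CPM. Cxcl2, a neutrophil-attracting chemokine, rose from 1.20 ± 0.547 to 3.57 ± 1.69 CPM, and its call was lost without aggressive AML replicate 2 (log2 fold change 1.20, adjusted p = 0.0518). Of 20 ribosome assembly genes that were set beside Cebpz, 2 rose and 0 fell by the edgeR test, with a median of 0.15. Of all tested genes, 8.15% were called higher and 10.2% lower. The 2 called genes are too few to read as more or less than this background. At an unadjusted p under 0.05 the list had 7 higher and 0 lower, and 0 fell by DESeq2 or limma. Pes1 rose from 157.7 ± 10.8 to 198.5 ± 12.3 CPM and Nop14 from 60.0 ± 5.66 to 78.3 ± 4.79 CPM, while Cebpz, as given above, was not called. The count of this list was 6 without aggressive AML replicate 3, and it was 4 when new AML replicate 3 or aggressive AML replicate 4 was left out.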

How the data were processed

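RNA-seq of 8 mouse libraries was used, in groups taken from the sample labels. The authors aligned reads to mm10 with HISAT2, counted reads per gene with Rsubread and removed genes of low CPM. The annotation and strand setting are not given in the sources used here. Although its name refers to CPM, the deposited table holds whole-number counts with totals that differ between libraries, and it was used as raw counts. The study itself fitted limma to log2 CPM. Because the values are counts, the main test here was that of edgeR 4.0.16 (R 4.3.3), with TMM scaling, group as the only term, two-sided p-values adjusted by Benjamini-Hochberg over 12494 genes and a threshold of 0.05. The test was also run on simulated counts with known changes and the spread per gene estimated from these libraries. The simulation held no library that stood apart, so it does not bear on the effect of aggressive AML replicate 3. Levels are CPM, and differences for single libraries are on log2(CPM + 1). Depth was 7805544 to 9697777 counts per library, and precision follows from these totals. Replicates differed beyond sampling noise, with a chi-square per degree of freedom of 4.12 to 11.2 within groups and 12.4 to 27.6 between groups.

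The C/EBP members and the gene lists were chosen with earlier results of these data known. The text names all members, up to 4 called genes of lowest adjusted p per list, Ddit3, Atf4, Trib1, Runx1, Spi1 and Csf3r in any case, the 3 most similar genes of each called member, and neighbors of members. Trib2 was on this list and is not used here. Other named genes are said to have been chosen afterwards. Alternatives were limma 3.58.1, DESeq2 1.42.0, other scalings and filters, a replicate block, each library left out, and other gene lengths. Coordinates, lengths and overlaps come from GENCODE M21 and RefSeq on GRCm38, and sequences from RefSeq on GRCm38.p6.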

Additional observations from a re-analysis of the deposited data

Results flagged for a closer look

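In 7 of 88 groups of 4 libraries examined, 1 library lay far from the other 3 (Dixon's ratio of gap to range, 95% critical value), and chance alone gives about 1 in 20 such groups. Among the members, aggressive AML replicate 3 was low for Cebpd, at 30.6 CPM against 49.4 to 50.8 CPM, and low for Cebpe, at 34.9 CPM against 66.7 to 72.2 CPM. Both members kept their calls without it. Cebpg had the largest drop of the members in that library (16.1 CPM against 60.5 to 69.9 CPM) but was not among the 7. In aggressive AML replicate 2, Asns was high at 87.3 CPM (others 37.8 to 44.2 CPM) and Kit, a progenitor receptor gene, was low at 138.9 CPM (others 172.6 to 174.5 CPM). Mef2c, a leukemia identity gene, was high in aggressive AML replicate 3 at 637.0 CPM (others 429.7 to 454.3 CPM). Pycr1 was high in aggressive AML replicate 1 at 50.6 CPM, next to a narrow range of 48.2 to 48.4 CPM. Cxcl2 was high in new AML replicate 3 at 2.01 CPM (others 0.821 to 1.00 CPM). Why these libraries stood apart was not tested.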

How the results depend on the processing

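Cebpe was called higher and Cebpd called lower under every test, scaling and filter run and without each library in turn. With libraries left out one at a time, the log2 fold change ran from 0.95 to 1.30 for Cebpe, from -0.65 to -0.44 for Cebpd and from -0.19 to 0.035 for Cebpa, the last value without aggressive AML replicate 3. Cebpg passed the threshold only with replicate 3 of both groups left out (-0.29, adjusted p = 0.0317), where 3 members were called. Without 1 library, called genes numbered 1466 to 2324 in all, 7 to 11 for other bZIP factors, 3 to 6 for regulators, 3 to 10 for stress-response genes and 2 to 6 for ribosome assembly. The stress-response count was 3 in limma without trend, 11 in voom with quality weights and 11 without replicate 3 of both groups, and the ribosome assembly count was 9 and 8 in the last 2 settings. The causes were not tested, but leaving libraries out also leaves fewer samples.

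Shares of the family in new and aggressive AML moved with the length by construction. With coding length they were 39.3% and 41.8% for Cebpa, 18.3% and 17.1% for Cebpb, 11.1% and 8.36% for Cebpd, 4.44% and 10.6% for Cebpe, 21.99% and 16.1% for Cebpg, and 4.88% and 5.95% for Cebpz. With no length correction, Cebpa held 44.2% in aggressive AML, and the shares were 16.8% and 14.9% for Cebpb, 9.22% and 6.60% for Cebpd, 3.88% and 8.80% for Cebpe, 10.3% and 7.22% for Cebpg, and 15.9% and 18.3% for Cebpz. With the shorter RefSeq span for Cebpd, added after seeing the data, Cebpd held 10.1% and 6.97%, Cebpz 8.50% in new AML and Cebpa 40.0% in aggressive AML.

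The groups share replicate numbers, but same-numbered libraries did not deviate together (correlations 0.0967, -0.0399, -0.0654 and 0.204), and replicates 1 and 4 correlated best with their own number while 2 and 3 did not. With a replicate block, 2367 genes were called, and the log2 fold changes were -0.12 for Cebpa, -0.31 for Cebpb, -0.61 for Cebpd, 1.09 for Cebpe, -0.67 for Cebpg and 0.05 for Cebpz. The block changed no call of a member, while list counts moved by at most 1, to 10 for other bZIP factors, 11 for late granule genes, 6 for stress-response genes and 3 for ribosome assembly. Depth did not limit the members, which had at least 124 counts in every library.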
